A study of Saccharomyces cerevisiae with 12 samples.

Results

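The comparison described here is of budding yeast, Saccharomyces cerevisiae, grown with 0.25% glucose against yeast grown with 2% glucose, the ends of a series of 4 levels with 1% and 0.5% between them. The members are the 3 arrays titled for 0.25% and the 3 titled for 2%, taken by title, 6 of 12 arrays in all. Each array carries biotin-labelled total RNA of a single sample, and the series design calls the 3 samples of a level biological replicates. Nothing says how separate the cultures were, so p-values measure the spread between these samples, which may be partly technical. The sources used here do not give the strain, genotype, growth phase, sampling time or medium beyond glucose, and the titles hold the word log without explaining it. The deposited values are signals on a linear scale, 1 per probe set, scaled so that arrays have the same mean. Of 5449 genes with a signal, 4086 were bright enough on average to be tested, and 1363 were dim, with a mean signal at or under 110. The mean was taken over all 12 arrays, so a gene under 110 at 2% could enter through the arrays of lower glucose. A signal depends on the probes as well as on the transcript, so levels are compared between arrays and never between genes.

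Budding yeast prefers glucose to other carbon sources and ferments it even in air. While glucose is plentiful, the hexokinase Hxk2 and the Mig repressors keep genes for respiration and for the use of other carbon sources silent, and the membrane sensors Rgt2 and Snf3 release the repressor Rgt1 from the genes of hexose transporters. When glucose runs low the Snf1 kinase inactivates Mig1, and the activators Adr1, Cat8 and Hap4 switch on the genes of ethanol oxidation, gluconeogenesis and respiration. Storage carbohydrate and stress genes, driven by Msn2 and Msn4 when protein kinase A activity is low, also respond to glucose in this yeast.

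Between 0.25% and 2% glucose 165 of 4086 tested genes differed (4.04%), 119 higher at 0.25% (2.91% of those tested) and 46 lower (1.13%), by limma with Benjamini-Hochberg adjusted p under 0.05. With the replicate number as a block, which pairs same-numbered arrays, 445 passed (10.9%), 260 higher (6.36%) and 185 lower (4.53%), all 165 among them. The labels do not state this pairing. Most genes moved little: the log2 differences of the tested genes had a median of -0.02 and ran from -0.27 at percentile 5 to 0.34 at percentile 95. By at least 2-fold 28 genes rose (0.685%) and 2 fell (0.0489%), HXT1 and HXT3. The arrays of the 2 levels did not overlap for 19.7% of the tested genes. In 74 of the 165 the call held with each of the 12 single arrays left out in turn, 60 of them higher and 14 lower. The total was lowest without replicate 1 at 2% (83), and was 103 and 98 without replicates 1 and 3 at 0.25%. The lower genes numbered 20 in the first of these fits and 25 and 26 in the others, 27 without replicate 2 at 2% and 28 without replicate 2 at 0.25%; the higher ones numbered 63, 78 and 72 in the same 3 fits. Between these ends the means of 1% and 0.5% lay in order for 97 of the 119 higher genes and 39 of the 46 lower ones; over all tested genes 8.74% were in rising and 7.95% in falling order, and the ends of the called genes were fixed by the call.

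**Figure D1:**
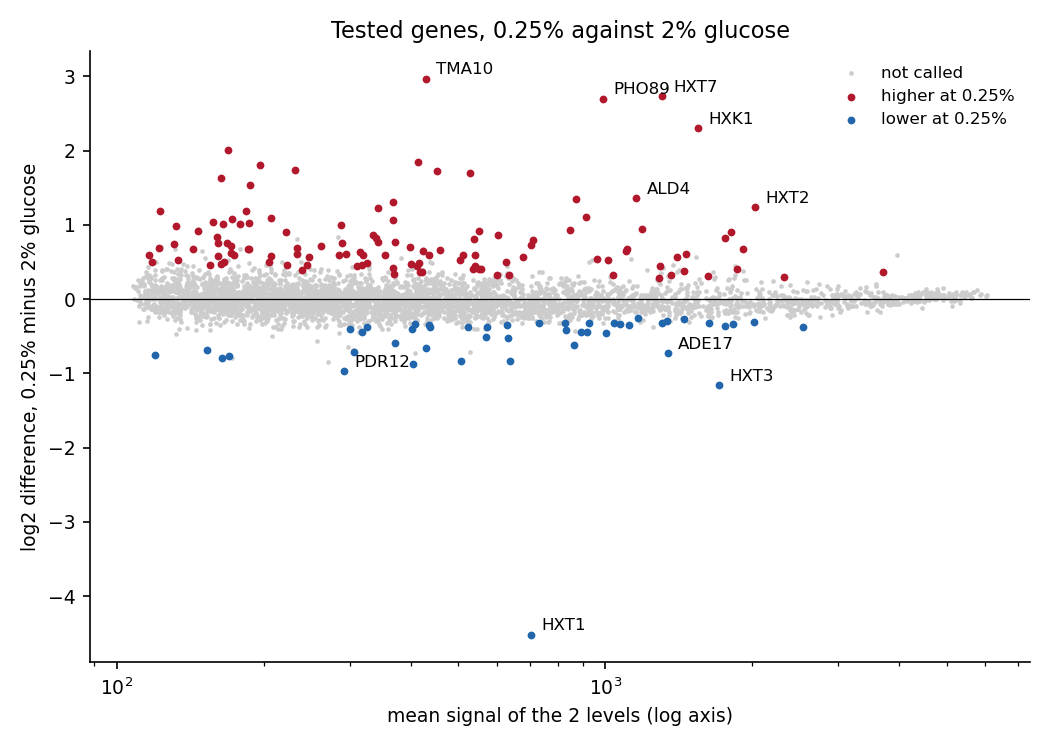
Mean signal of both levels (horizontal, log axis) and log2 difference of 0.25% minus 2% glucose (vertical) for the 4086 tested genes; red points are the 119 called higher and blue points the 46 called lower. Most genes lie near 0, HXT1 stands alone at -4.52, and TMA10, HXT7, PHO89, HXK1 and DDR2 lie above 2.

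Control probe sets moved with the glucose level too. The log2 ratio of 3' to 5' signal, averaged over 7 control genes, was 1.42, 1.24 and 1.19 on the 2% arrays and 0.87, 0.84 and 0.93 on the 0.25% arrays, without overlap (1.28 ± 0.12 against 0.88 ± 0.04, SD, n = 3 each; two-sided exact permutation p = 0.10, the smallest this design allows). All 9 arrays of the lower levels lay between 0.82 and 0.94, so a high ratio and the 2% level cannot be told apart. With the ratio as a covariate 8 genes passed, all among the 165: TMA10, HXT7, PHO89, HXK1, HXT2, ALD4, GSC2 and HXT1. HXT3 and HXT4 kept log2 differences of -1.07 and 1.98 with it without passing (adjusted p = 0.45 and 0.56). Over 17 probe sets for ribosomal RNA the mean log2 signal was 6.88, 7.65 and 8.76 at 2% and 8.12, 9.11 and 9.48 at 0.25%, with overlap (exact permutation p = 0.20), and with it as a covariate 95 of the 165 passed. Both measures differed in mean between the arrays that the gene groups below compare. Their part in those groups was not tested beyond the covariates.

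Along single transcripts the difference depended on where the probes lie. For RIP1, whose gene was also called, the log2 difference was 1.00 at the 5' end, 0.77 in the middle and 0.70 at the 3' end, and the arrays did not overlap at any of the 3 positions. TDH1, another called gene, was at 0.67, 0.60 and 0.37 in the same order. SPT15, which encodes the TATA-binding protein, was at 0.36, -0.05 and -0.18, and its arrays did not overlap at either end, in opposite directions. SRB4, a Mediator subunit gene, was at 0.75, 0.32 and -0.18, with its 5' probe set dim at means of 33.3 and 55.0, while ACT1, the actin gene, stayed between 0.07 and 0.15. All 7 control genes had a higher difference at the 5' end than at the 3' end. Most genes are read by a single probe set, and the part of this gradient in their calls was not tested beyond the covariate.

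**Figure D2:**
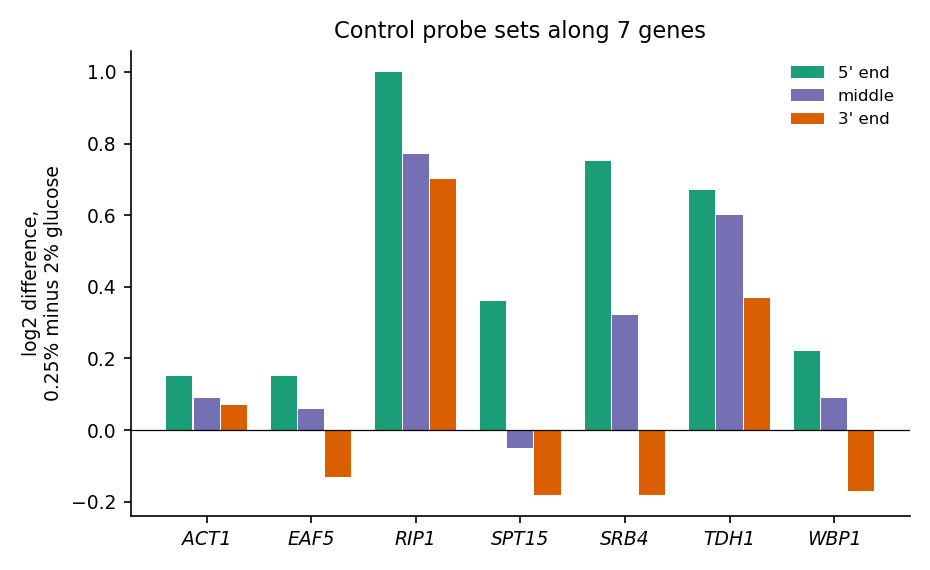
Log2 difference of the mean signal, 0.25% minus 2% glucose, for control probe sets at the 5' end, the middle and the 3' end of 7 genes (bars, from 0). In each gene the 5' bar is above the 3' bar; for RIP1 and TDH1 all 3 bars are above 0.

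Genes of hexose uptake were called in both directions, the largest fall of all tested genes among them. HXT1, the low-affinity transporter of cells in rich glucose, gave signals of 1430, 1300 and 1321 on the 2% arrays and 73.6, 55.7 and 49.5 on the 0.25% arrays. Its mean passed through 746 at 1% and 186 at 0.5%, and the fall from 2% to 0.25% was 23.0-fold (log2 difference -4.52, SE 0.15, adjusted p = 1.6e-10). HXT3, the other low-affinity transporter measured, read 2534, 2142 and 2384 at 2% and 1264, 1006 and 917 at 0.25%. Its mean at 1%, 2402, was not below that at 2%, and most of its fall lay below 0.5% glucose, where the mean was still 1784. The fall to 0.25% was 2.23-fold (log2 -1.16, SE 0.10, adjusted p = 5.9e-06), so in both low-affinity transporters the arrays of the levels lay far apart.

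Of the transporters of higher affinity, HXT7 read 348, 394 and 294 at 2% and 2292, 2231 and 2303 at 0.25%, a rise of 6.64-fold (adjusted p = 3.6e-10). Its probe set belongs to the types shared between transcripts, and the nearly identical HXT6 has none of its own, so the value may hold both. HXT4 rose 3.25-fold (adjusted p = 0.00018), from 267, 251 and 212 to 1129, 617 and 701, with replicate 1 at 0.25% well above the other two. HXT2 rose 2.36-fold (adjusted p = 8.8e-08), from 1328, 1143 and 1160 to 2836, 2787 and 2922, and had reached 2670 at 0.5% already. These 5 are all the tested members of the list of hexose transporters; 10 more, among them HXT5, were dim. HXT5, a transporter of slowly growing cells, was at 19.9, 30.5 and 18.9 at 2% and 37.0, 58.4 and 36.2 at 0.25%, and in a fit without the dim filter it did not pass (adjusted p = 0.12; 0.019 with the replicate block).

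Of the kinases that phosphorylate the sugar on entry, HXK1, GLK1 and EMI2 rose and HXK2 did not pass, where 2.91% of all tested genes rose. HXK1, the hexokinase that glucose represses, read 492, 634 and 459 at 2% and 2544, 2422 and 2745 at 0.25%, 4.91-fold higher (adjusted p = 5.1e-09). GLK1, glucokinase, went from 693, 956 and 790 to 1536, 1430 and 1722, 1.93-fold higher (adjusted p = 0.00067). EMI2, a close relative of GLK1, rose 1.87-fold (adjusted p = 0.00010). HXK2, the main hexokinase of cells on glucose, read 3351, 3330 and 3851 at 2% and 3516, 3959 and 3710 at 0.25%. Those arrays overlapped, and the log2 difference of 0.09 (95% interval from -0.14 to 0.31) did not pass (adjusted p = 0.76).

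**Figure D3:**
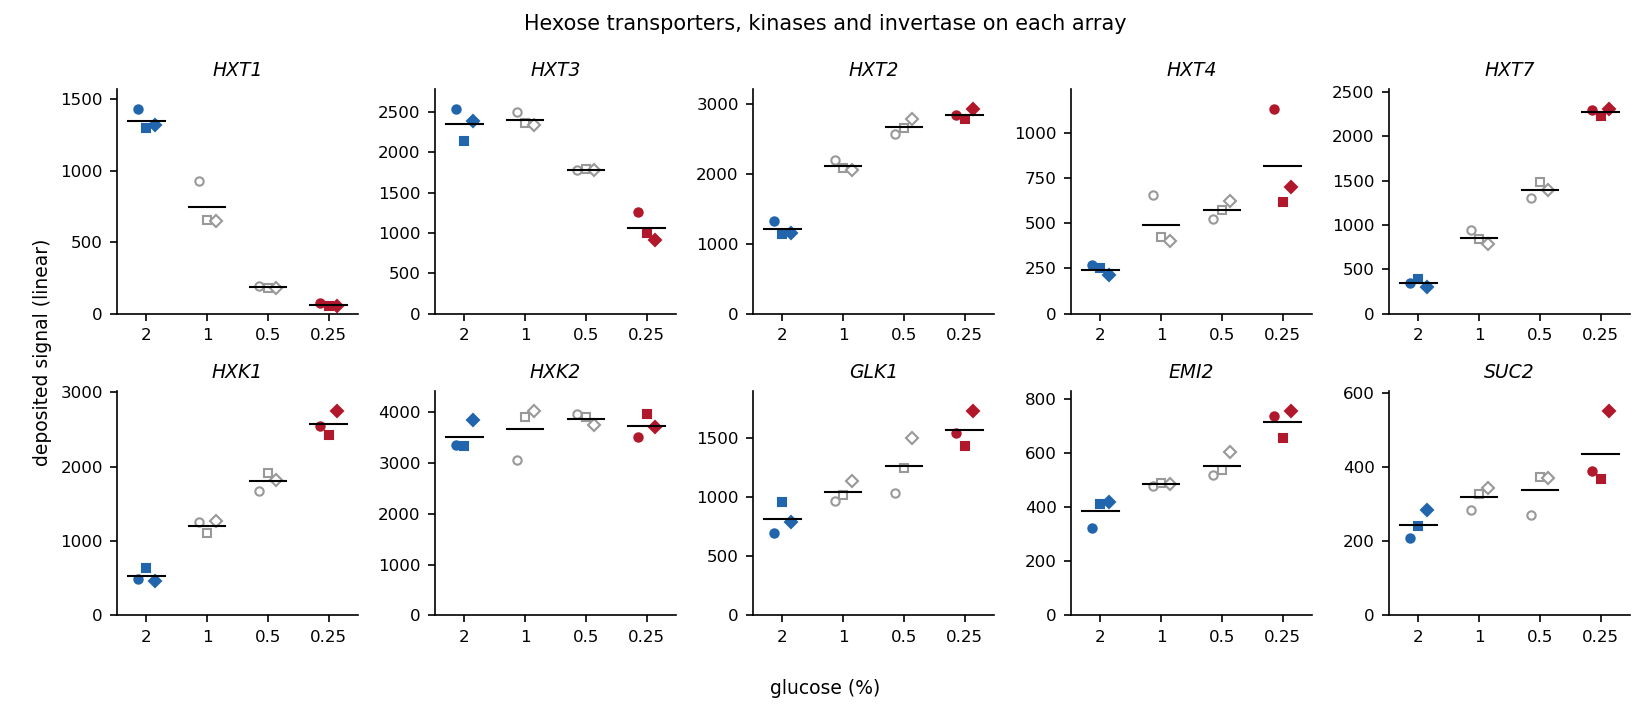
Signal on each array (vertical, linear, from 0) at 2%, 1%, 0.5% and 0.25% glucose (horizontal) for 10 genes; circles, squares and diamonds are replicates 1, 2 and 3, blue and red mark 2% and 0.25%, and bars are level means. HXT1 is at or below 73.6 on the 0.25% arrays, the means of HXT7 and HXK1 are higher at each lower level, and the arrays of HXK2 overlap between the ends.

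No tested sensor or repressor gene of these lists passed without the replicate block. The share called over all tested genes was itself only 4.04%, and 10.9% with the block. In the list of glucose sensing and the Rgt1 pathway 0 of 6 tested genes were called by limma without the block, and 1 with it. SNF3, the sensor of low glucose, went from 114, 106 and 105 to 174, 128 and 150 without overlap, but with an adjusted p of 0.059 (0.0063 with the replicate block). In the list of glucose repression and the Snf1 kinase 0 of 14 tested genes passed by limma without the block, with a median log2 difference of 0.04. MIG2, a repressor related to Mig1, read 502, 342 and 290 at 2% and 261, 244 and 191 at 0.25% and did not pass (log2 -0.68, adjusted p = 0.20). It passed with the replicate block (0.00077): each array at 0.25% was below the array of the same number at 2%. SIP2, a Snf1 complex subunit gene, also passed with the block alone (log2 0.40, adjusted p = 0.012). MIG1 itself was at a log2 difference of 0.21 (adjusted p = 0.53), SNF1 at -0.03 (0.92) and MSN2 at -0.01 (0.99).

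Several regulators were too dim to enter the test. Their values come from the fit without the dim filter, in which 237 of all 5449 genes passed (4.35%). Of the 1363 dim genes 59 were higher at 0.25% (4.33%) and 8 lower (0.587%), with the replicate block 110 (8.07%) and 25 (1.83%), and with an offset of 16 added 61 (4.48%) and 8. MTH1, a co-repressor that works with Rgt1, read 54.1, 41.2 and 43.1 at 2% and 275, 144 and 188 at 0.25%, a rise of 4.27-fold (adjusted p = 6.2e-05). ADR1, an activator of ethanol and fatty acid oxidation genes, went from 36.8, 46.0 and 52.2 to 149, 150 and 210 (adjusted p = 4.6e-06). CAT8, the activator of gluconeogenic genes, went from 13.6, 27.8 and 15.7 to 49.5, 55.2 and 57.5, still under the dim limit on every array (adjusted p = 0.00087). In each of these 3 genes the arrays of the ends did not overlap.

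HAP4, the regulated subunit of the activator of respiratory genes, read 82.5, 75.0 and 54.8 at 2% and 146, 114 and 190 at 0.25% (log2 1.07, adjusted p = 0.0036). Its mean at 1%, 71.9, was close to the 70.7 at 2%; MTH1 went from 46.1 to 89.0 and ADR1 from 45.0 to 73.6 between those levels. MSN4, the stress activator, went from 27.2, 51.8 and 52.6 to 72.3, 104 and 90.9 (log2 1.07, adjusted p = 0.015; 0.054 without replicate 1 at 2% and 0.071 and 0.057 without replicates 2 and 3 at 0.25%). MIG3, another Mig1 relative, fell: it read 137, 102 and 109 at 2% and 36.5, 19.9 and 26.5 at 0.25%, 4.30-fold lower (adjusted p = 0.00011). For MTH1, ADR1, CAT8, HAP4 and MIG3 the adjusted p stayed at or under 0.020 with any single array left out. With an offset of 16 added to every signal, which shrinks the folds of dim genes, the log2 differences were 1.78 for MTH1, 1.60 for ADR1, 1.02 for CAT8, 0.92 for HAP4 and -1.61 for MIG3, and these 5 genes still passed.

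**Figure D4:**
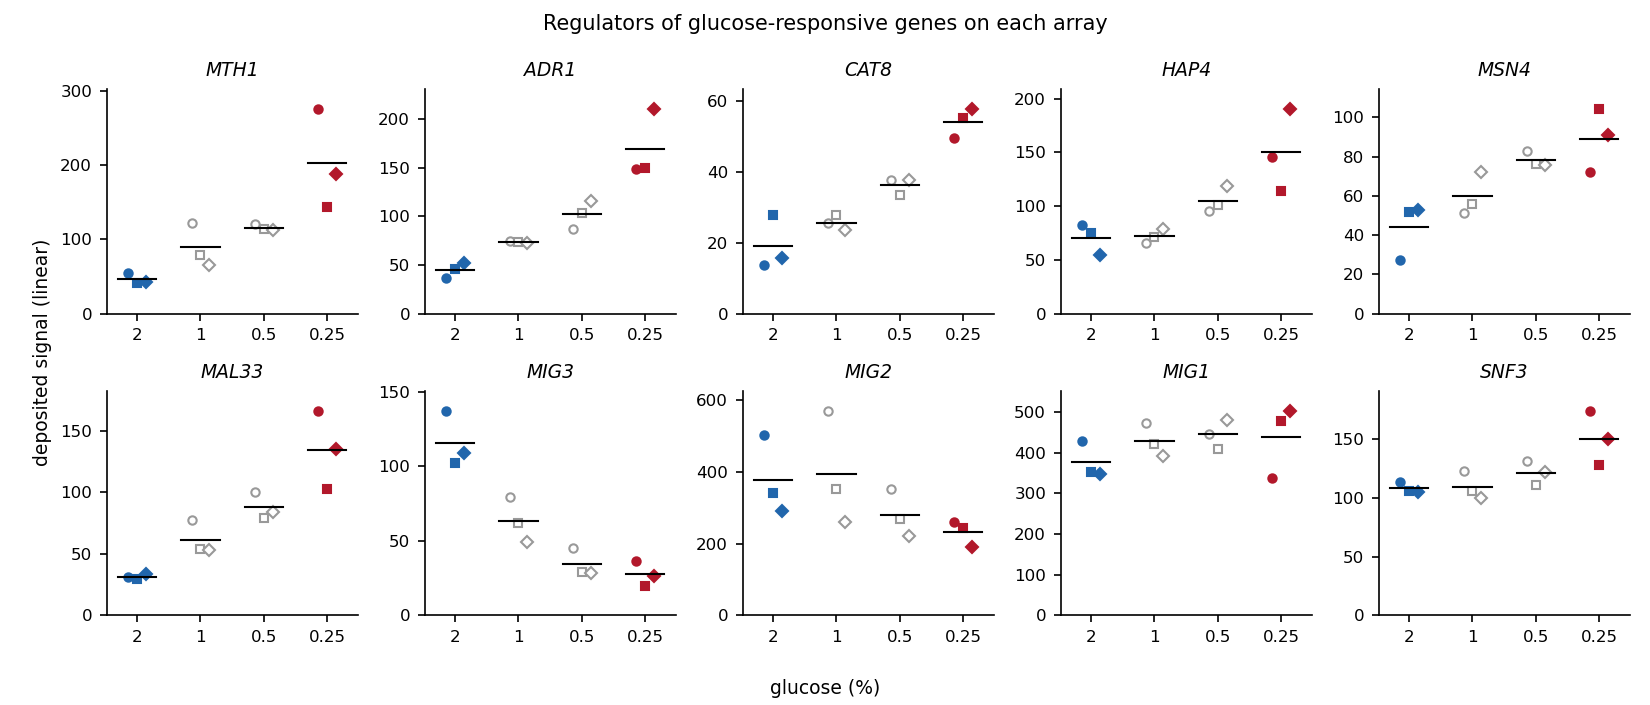
Signal on each array (vertical, linear, from 0) at 4 glucose levels (horizontal) for 10 regulator genes, with replicates 1, 2 and 3 as circles, squares and diamonds and level means as bars. The means of MTH1, ADR1, CAT8 and MAL33 are higher and that of MIG3 lower at each lower level, while the arrays of MIG1 overlap between the ends.

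In the list of genes for the use of other sugars and ethanol 6 of 10 tested genes rose, against 2.91% of all genes, and 17 were dim. Beside HXK1, GLK1 and EMI2 these were ALD4, an aldehyde dehydrogenase of mitochondria, GUT2, which oxidises glycerol 3-phosphate there, and SUC2, invertase, which splits sucrose outside the cell. ALD4 read 629, 666 and 646 at 2% and 1571, 1572 and 1861 at 0.25%, 2.57-fold higher (adjusted p = 8.8e-08). GUT2 went from 111, 126 and 101 to 268, 236 and 260, 2.27-fold higher (adjusted p = 1.3e-05). SUC2 went from 208, 241 and 284 to 388, 368 and 550; its rise of 1.77-fold (adjusted p = 0.011) was lost without replicate 1 at 2% (0.070) or replicate 3 at 0.25% (0.052). Among the dim members, MAL33, the activator of maltose genes, rose 4.20-fold in the fit without the dim filter, from 31.3, 29.8 and 33.7 to 166, 103 and 135 (adjusted p = 6.6e-06). MAL32, maltase, JEN1, the lactate permease, and CYB2, lactate dehydrogenase, named here after their values were seen, also passed in that fit (adjusted p = 0.0063, 0.044 and 0.013) at signals of at most 43.3. CYB2 missed the threshold when replicate 1 at 2% was left out (0.073), and when replicate 2 or replicate 3 at 0.25% was (0.051 and 0.057), and JEN1 in 10 of the 12 fits that left out 1 array (up to 0.18 without replicate 1 at 2%). ADH2, the alcohol dehydrogenase of ethanol oxidation, was at 42.5, 59.8 and 53.3 at 2% and 84.4, 71.4 and 75.6 at 0.25% (adjusted p = 0.084; 0.046 with the replicate block).

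The key genes of gluconeogenesis and the glyoxylate cycle stayed at low signal at both ends. FBP1, fructose-1,6-bisphosphatase, had a mean of 6.32 at 2% and 9.59 at 0.25%. PCK1, phosphoenolpyruvate carboxykinase, was at 29.4 and 35.7, ICL1, isocitrate lyase, at 32.0 and 33.4, and MLS1, malate synthase, at 7.62 and 6.62. None of these 4 passed in the fit without the dim filter (limma adjusted p from 0.62 to 0.96). Of the 4 tested members of the list ACS1, which makes acetyl-CoA from acetate, and the mitochondrial carrier gene ODC1 passed with small rises (log2 0.50 and 0.47), but ACS1 missed the threshold in 9 of the 12 fits that left out 1 array and ODC1 in 5 (adjusted p up to 0.22 and 0.15, both without replicate 1 at 2%). With the ribosomal RNA covariate neither passed (adjusted p = 0.17 and 0.11). In glycolysis PYK2, the minor pyruvate kinase isoenzyme, and TDH1 were the 2 of 14 genes called higher (log2 0.58 and 0.40), against 2.91% of all tested genes. The list median was 0.08. None of the 14 passed without replicate 1 or 3 at 2% or replicate 3 at 0.25%, nor with the ribosomal RNA covariate. CDC19, the main pyruvate kinase, was at 0.10 (adjusted p = 0.81).

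Of 11 tested genes of glycogen, the branched glucose store, 6 rose (against 2.91% of all tested genes) and 0 fell, with a median log2 difference of 0.58 against -0.02 over all tested genes. The 7 other members were dim, and 0 of them passed by limma without the dim filter, with the replicate block or without it. GPH1, GSY1 and GLC3, described next, had means of 87.4, 80.1 and 108 at 2%, under the dim limit of 110, and entered the test through the arrays of lower glucose. GPH1, glycogen phosphorylase, read 76.5, 100 and 85.5 at 2% and 297, 285 and 331 at 0.25%, 3.50-fold higher (adjusted p = 3.6e-07). GLC3, the branching enzyme, went from 81.0, 131 and 112 to 392, 316 and 357, 3.34-fold higher (adjusted p = 5.7e-06). GSY1, glycogen synthase, went from 75.4, 90.7 and 74.2 to 261, 246 and 234, 3.09-fold higher (adjusted p = 2.8e-07). Its isoenzyme GSY2 rose 1.70-fold and PGM2, phosphoglucomutase, 2.06-fold, while GDB1, the debranching enzyme, rose by 0.58 on the log2 scale. GDB1 missed the threshold in 7 of the 12 fits that left out 1 array (adjusted p at most 0.20, without replicate 1 at 2%), and with the 3' to 5' ratio as a covariate 0 of the 6 passed, at log2 differences of 1.54 for GPH1, 1.01 for GLC3 and 1.52 for GSY1. With the dim filter set at the median of all genes, which leaves fewer genes to test, 1 member was called. In trehalose metabolism 0 of 6 tested genes passed by limma and 4 rose with the replicate block, against 6.36% of all tested genes higher with it. TSL1, a synthase complex subunit, led them (log2 0.68, adjusted p = 0.20, and 0.0022 with the block), and its 3 arrays at 2% spread from 228 to 441.

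General stress genes differed among themselves. Of 20 tested members 6 rose and 1 fell (against 2.91% and 1.13% of all tested genes), with a list median of 0.16, and 20 more were dim. TMA10, a ribosome-associated protein gene, read 88.0, 108 and 94.2 at 2% and 895, 633 and 757 at 0.25%, 7.84-fold higher and the largest rise of all tested genes (adjusted p = 8.4e-10). DDR2, a small stress-induced gene, went from 53.0, 80.0 and 69.4 to 244, 293 and 271, 4.04-fold higher (adjusted p = 7.4e-07). Both TMA10 and DDR2 were under the dim limit of 110 on every 2% array. They entered the test through the arrays of lower glucose. HSP12, a membrane-associated stress protein, went from 185, 250 and 179 to 428, 586 and 430, 2.35-fold higher (adjusted p = 0.00022). SPI1, a cell wall protein, rose 1.79-fold and GAD1, glutamate decarboxylase, 1.59-fold, while GRE2, a methylglyoxal reductase, fell 1.58-fold (adjusted p = 0.0030). TMA17, a proteasome assembly chaperone, made up the 6 (log2 0.52), but missed the threshold in 9 of the 12 fits that left out 1 array (adjusted p up to 0.16). HSP26, a small heat shock protein of the same list, read 430, 538 and 439 against 414, 558 and 481, fully overlapping (log2 0.04, adjusted p = 0.91). None of 25 heat shock chaperone genes passed by limma, and 1 fell with the replicate block, against 4.53% of all tested genes (list median -0.04). With the dim filter at the median 2 stress genes were called higher, and with the 3' to 5' covariate 1, TMA10.

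Of 23 tested genes of the tricarboxylic acid cycle 6 rose (9 with the replicate block), 20 had positive differences, and the median was 0.21. Over all tested genes 2.91% rose (6.36% with the block), 1876 of 4086 differences were positive and the median was -0.02. CIT1, citrate synthase, read 737, 973 and 879 at 2% and 1283, 1346 and 1412 at 0.25%, 1.57-fold higher (adjusted p = 0.0023). MDH1, mitochondrial malate dehydrogenase, read 784, 876 and 834 against 1138, 1193 and 1262, 1.44-fold higher (adjusted p = 0.00037). The succinate dehydrogenase genes SDH2, SDH1 and SDH4 rose by 0.71, 0.63 and 0.44 on the log2 scale, and LSC2, a succinyl-CoA ligase subunit, by 0.77, which missed the threshold in 6 of the 12 fits that left out 1 array (adjusted p at most 0.17, without replicate 3 at 0.25%). ACO1, aconitase, was at -0.05 (adjusted p = 0.87).

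In the respiratory chain 7 of 22 tested genes rose and 0 fell, and with the replicate block 13 rose and 1 fell. The shares over all tested genes were 2.91% and 1.13%, and with the block 6.36% and 4.53%. NDE1, the external NADH dehydrogenase, read 616, 579 and 556 at 2% and 1140, 1008 and 1186 at 0.25%, 1.90-fold higher (adjusted p = 3.0e-05). RIP1, the Rieske protein of complex III, went from 188, 285 and 243 to 420, 407 and 460, 1.82-fold higher (adjusted p = 0.0027). The complex III genes CYT1, QCR2, COR1 and QCR9 and the cytochrome oxidase gene COX4 made up the rest, with log2 differences from 0.33 to 0.71. Of these COR1 read 516, 485 and 554 against 732, 762 and 705, without overlap (adjusted p = 0.00098). Without replicate 1 at 2%, and without replicate 3 at 0.25%, 4 members passed. CYC1, cytochrome c, passed with the block alone (log2 0.32, adjusted p = 0.10; 0.0063 with it).

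Of 19 tested ATP synthase genes 6 rose (against 2.91% of all tested genes), all 19 differences were positive, and the median was 0.30. INH1, which inhibits the enzyme when it would hydrolyse ATP, read 128, 173 and 101 at 2% and 283, 283 and 270 at 0.25%, 2.13-fold higher (adjusted p = 0.00094). The calls of STF2, ATP3, ATP12, ATP7 and ATP1, at log2 differences from 0.30 to 0.56, depended on single arrays: the count was 1 without replicate 1 at 2%, 2 without replicate 3 at 2%, 3 without replicate 1 or 2 at 0.25% and 2 without replicate 3 at 0.25%. With the replicate block 12 rose, against 6.36% of all tested genes. Among them was ATP2, the beta subunit, which had read 943, 1395 and 1367 at 2% and 1502, 1675 and 2310 at 0.25% (log2 0.56, adjusted p = 0.16, and 0.00062 with the block). MIR1, the mitochondrial phosphate carrier, rose 1.59-fold (adjusted p = 0.0019), from 781, 923 and 857 to 1321, 1195 and 1582. It was the 1 of 20 genes of mitochondrial carriers and import called, 5.0% against 2.91% of all tested genes. PET9, the main ADP/ATP carrier, passed with the block alone (log2 0.44, adjusted p = 0.053, and 0.0049 with the block).

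Mitochondrial ribosomal protein genes had small differences of mostly one sign: 72 of 73 differences were positive against 1876 of 4086 over all tested genes, with a median of 0.18 and a largest value of 0.41. The 3 members called, 4.11% against 2.91% of all tested genes, were MRPL10, MRPL13 and RML2. Without replicate 1 at 2% 0 passed, and without replicate 1 or replicate 3 at 0.25% 1 passed. With the replicate block 10 rose, against 6.36% of all tested genes. MRPL10 read 412, 494 and 519 at 2% and 628, 617 and 642 at 0.25% (adjusted p = 0.014). Cytosolic ribosomal protein genes had 72 of 127 differences above 0 with a median of 0.01. By limma 0 were called (2 lower with the block, against 4.53% of all tested genes). With the 3' to 5' ratio as a covariate 0 genes of the tricarboxylic acid cycle, respiratory chain, ATP synthase and mitochondrial ribosome passed. With the ribosomal RNA covariate 5, 7, 3 and 1 of them rose.

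**Figure D5:**
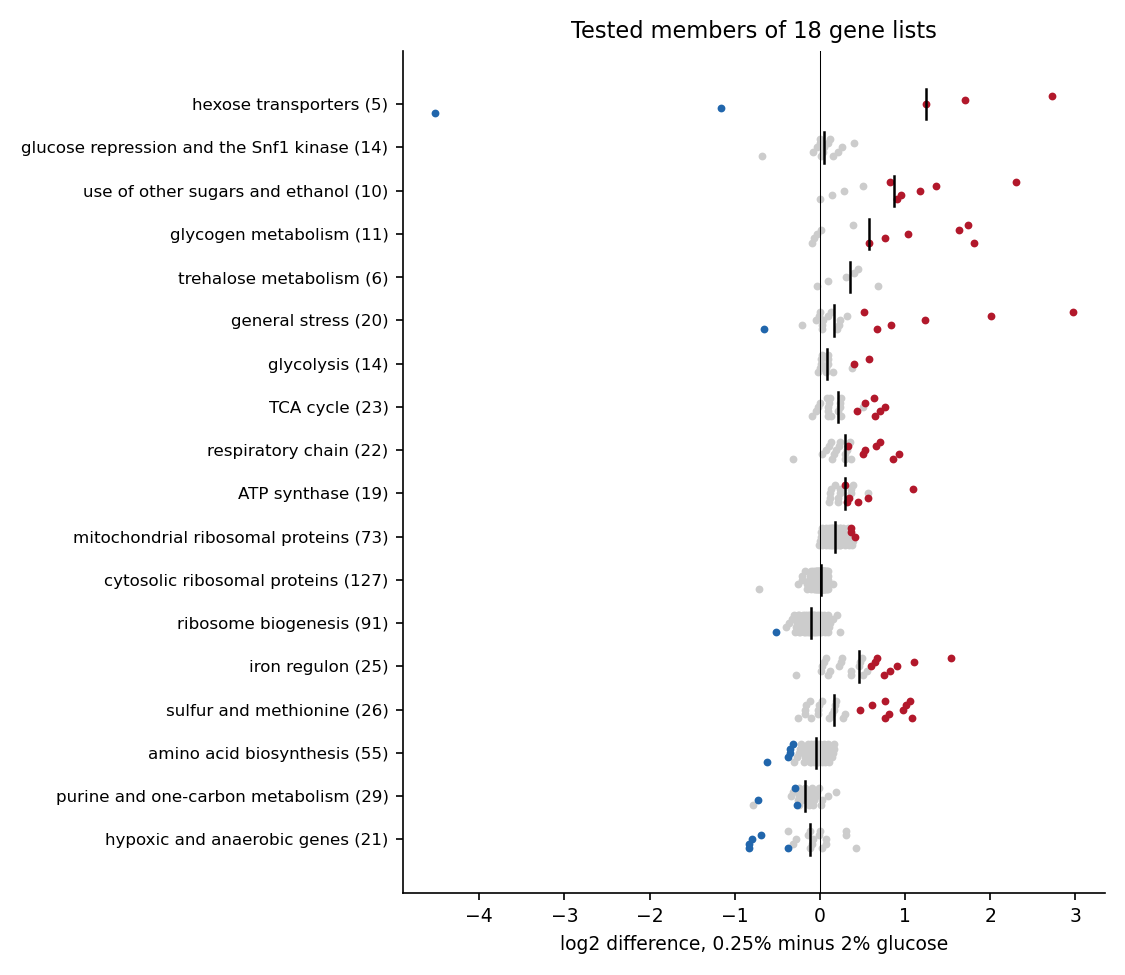
Log2 difference, 0.25% minus 2% glucose (horizontal), of each tested gene in 18 lists, with the number of genes in brackets; red and blue points were called higher and lower, grey points were not called, and black bars are list medians. Points of the mitochondrial lists lie mostly right of 0 with few called, while the hexose transporters spread from -4.52 to 2.73.

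Of 25 tested members of the iron regulon, which holds the genes of iron uptake, 8 rose (against 2.91% of all tested genes). In this list 24 had positive differences, and the median was 0.46. SIT1, a siderophore transporter, read 494, 595 and 649 at 2% and 1337, 1034 and 1374 at 0.25%, 2.15-fold higher (adjusted p = 0.00026). FET3, the ferroxidase of high-affinity uptake, read 1158, 1266 and 1363 against 2235, 1885 and 2627, 1.77-fold higher (adjusted p = 0.0039). TIS11, which destabilises mRNAs when iron is short, had the largest difference (log2 1.54) and a wide spread, from 66.6, 97.1 and 111 to 300, 145 and 403. Its signals at 2% lay mostly under the dim limit of 110, and it entered the test through the arrays of lower glucose. In all 8 called members replicate 2 at 0.25% was the lowest of its level: FIT2, a cell wall mannoprotein, read 2984, 1557 and 2599 there. The means at 0.5% were close to those at 0.25% for SIT1 (1149 and 1248), FET3 (2315 and 2249) and FIT2 (2517 and 2380). TIS11 missed the threshold when replicate 1 or 2 at 2% was left out (adjusted p = 0.12 and 0.053), and likewise replicate 1 or 3 at 0.25% (0.075 and 0.10). The count of 8 was 3 without replicate 1 at 2%, 4 without replicate 1 or replicate 3 at 0.25%, and 10 without replicate 2 at 0.25%. With the covariate of ribosomal RNA 5 passed. With the replicate block 15 rose, against 6.36% of all tested genes.

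Sulfate assimilation and methionine genes rose in a part of their list, 9 of 26 tested members with 0 lower and a median of 0.17. Over all tested genes 2.91% rose. MET2, homoserine acetyltransferase, read 109, 107 and 111 at 2% and 176, 273 and 256 at 0.25%, 2.11-fold higher (adjusted p = 0.00047). MMP1, the S-methylmethionine permease, went from 226, 243 and 245 to 478, 470 and 541, 2.08-fold higher (adjusted p = 9.5e-05). MHT1, which uses S-methylmethionine to make methionine and is the neighbour of MMP1 on the chromosome, went from 116, 131 and 108 to 238, 233 and 246 (2.02-fold, adjusted p = 0.00022). MET16, MET14, MET3, MET10 and MET5 of the path from sulfate to sulfide rose by 0.98, 0.81, 0.76, 0.61 and 0.47 on the log2 scale, and CBF1, an activator of these genes, by 0.76. MET10 and MET5 missed the threshold in 7 and 5 of the 12 fits that left out 1 array (adjusted p at most 0.20 and 0.13, both without replicate 1 at 2%). Of the 13 dim members SUL2, a sulfate permease, and MET28, a regulator, named after their values were seen, passed in the fit without the dim filter (log2 1.08 and 0.98). With the dim filter at the median 3 members rose and 1 fell.

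In the phosphate regulon 1 of 22 tested genes rose and 1 fell (3 and 1 with the replicate block). Without the block each was 4.55% of the list, against 2.91% higher and 1.13% lower over all tested genes. With the block the shares over all tested genes were 6.36% and 4.53%. PHO89, the sodium-phosphate symporter, read 239, 300 and 258 at 2% and 1766, 1737 and 1648 at 0.25%, 6.49-fold higher (adjusted p = 8.3e-09), and passed through 741 and 1150 at 1% and 0.5%. PHO84, the main phosphate transporter, read 3759, 3228 and 4044 against 3480, 3972 and 4054 and overlapped (log2 0.06, 95% interval from -0.19 to 0.32, adjusted p = 0.86). PHO3, an acid phosphatase, fell (log2 -0.44), but missed the threshold without replicate 1 of either level (0.065 at 2% and 0.062 at 0.25%). The list median was 0.03; without replicate 1 at 0.25% 2 rose.

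Of 36 cell wall genes 4 rose, and 2 in 8 of the 12 fits that left out 1 array. The 4 were 11.1% of the list, against 2.91% of all tested genes. GSC2, a glucan synthase catalytic subunit, read 488, 533 and 450 at 2% and 1225, 1329 and 1200 at 0.25%, 2.56-fold higher (adjusted p = 9.0e-07), and passed with the 3' to 5' covariate as well. SPI1, counted with the stress genes, was the other that held in each fit that left out 1 array. YPS1, a surface protease, and SED1, a wall glycoprotein (log2 0.61 and 0.36), were lost in at least those 8 fits (adjusted p up to 0.19 each). Among nitrogen catabolite-repressed genes CAR2, ornithine transaminase, rose 1.49-fold and CAR1, arginase, by 0.31 on the log2 scale. These were 2 of 16 tested, against 2.91% of all tested genes. CAR1 missed the threshold in 9 of the 12 fits that left out 1 array (adjusted p up to 0.22). PRB1, a vacuolar protease of that list, went from 136, 179 and 186 to 235, 253 and 413 and passed with the block alone (log2 0.81, adjusted p = 0.059; 0.00021).

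Among the falls, the list of hypoxic and anaerobic genes had the largest share of members called after the hexose transporters. In it 5 of 21 tested genes fell, or 23.8% (against 1.13% of all genes), and 0 rose. With the replicate block 7 fell and 2 rose, against 4.53% and 6.36% of all tested genes. ANB1, the hypoxic form of translation factor eIF5A, read 686, 636 and 625 at 2% and 402, 384 and 312 at 0.25%, 1.78-fold lower (adjusted p = 0.00047). TIR1, a cold- and anaerobiosis-induced wall mannoprotein, went from 811, 855 and 787 to 492, 465 and 425, also 1.78-fold lower (adjusted p = 0.00010). AAC3, the anaerobic ADP/ATP carrier, went from 193, 225 and 208 to 123, 115 and 122 (1.74-fold, adjusted p = 0.0019). TIR3, a relative of TIR1, fell 1.61-fold, a call just lost without replicate 1 at 2% (adjusted p = 0.054). HEM13, a heme synthesis enzyme induced when oxygen is low, fell by 0.37 on the log2 scale, and missed the threshold without replicate 2 or 3 at 2% (0.082 and 0.086) or replicate 1 at 0.25% (0.10). OLE1, the fatty acid desaturase, was higher in each replicate, from 1293, 948 and 1115 to 1778, 1210 and 1529, and passed with the block alone (log2 0.42, adjusted p = 0.17; 0.00041).

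Of 29 tested genes of purine and one-carbon metabolism 3 fell (10 with the replicate block) and 0 rose, with 25 differences negative and a median of -0.17. Over all tested genes 1.13% fell (4.53% with the block), and 2210 of 4086 differences were negative. ADE17, which completes the purine ring, read 1786, 1650 and 1590 at 2% and 1044, 1000 and 982 at 0.25%, 1.66-fold lower (adjusted p = 3.4e-05). ADE1 and ADE13 fell by 0.27 and 0.29 on the log2 scale, and 1 member of the list passed without replicate 3 at 2%, replicate 2 at 0.5% or any single array at 0.25%. IMD2, of guanine nucleotide synthesis, read 207, 169 and 272 at 2% and 122, 87.1 and 175 at 0.25%; each replicate fell, but the arrays overlapped and the fall passed with the block alone (log2 -0.79, adjusted p = 0.20; 0.00020), on a probe set shared between transcripts.

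Of 55 amino acid biosynthesis genes 5 fell (8 with the block), with a median of -0.05. The shares that fell over all tested genes were 1.13%, and 4.53% with the block. GLT1, glutamate synthase, read 1000, 1059 and 1069 at 2% and 554, 823 and 685 at 0.25%, 1.54-fold lower (adjusted p = 0.0059). LEU1, HIS5, LYS9 and HIS4 fell by 0.37, 0.35, 0.35 and 0.32 on the log2 scale. The count of 5 was 3, 2 and 2 without replicates 1, 2 and 3 at 2% and 1, 3 and 3 without those at 0.25%. Ribosome biogenesis genes had 71 of 91 differences below 0 and a median of -0.10. In this list 1 was called (1.1%, against 1.13% of all tested genes), NOC4 (log2 -0.51), which read 724, 664 and 623 against 537, 424 and 451. It missed the threshold in 5 of the 12 fits that left out 1 array (adjusted p at most 0.15, without replicate 1 at 2%); without replicate 3 at 2% 3 genes of the list fell, without replicate 1 at 1% 2, and with the replicate block 6.

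Of 16 tested exporter genes 2 fell (against 1.13% of all tested genes). PDR12, the weak-acid exporter, read 327, 448 and 388 at 2% and 171, 213 and 208 at 0.25%, 1.96-fold lower (adjusted p = 0.0020). TPO1, a polyamine exporter, fell 1.71-fold (adjusted p = 0.0022), from 198, 245 and 200 to 132, 105 and 140. AQR1, another exporter, passed with the block alone (log2 -0.73, adjusted p = 0.11; 0.00047). HPF1, a wall mannoprotein outside the lists, fell 1.63-fold (adjusted p = 0.0035), and ARI1, an aldehyde reductase, 1.84-fold, its call lost without replicate 2 at 2% (adjusted p = 0.051). EUG1, a protein disulfide isomerase of the endoplasmic reticulum, read 748, 816 and 685 at 2% and 495, 500 and 556 at 0.25% (log2 -0.53, adjusted p = 0.018), and missed the threshold without replicate 1 or 2 at either level (0.065, 0.082, 0.066 and 0.063). HUG1, a small gene induced by DNA damage, went from 147, 153 and 152 to 84.7, 95.2 and 88.6, 1.68-fold lower (adjusted p = 0.0012).

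Of 27 tested genes of mating and the pheromone response 2 were higher and 2 lower (2 and 5 with the block), and 21 differences were negative. The shares over all tested genes were 2.91% and 1.13%, and with the block 6.36% and 4.53%. AGA1, an agglutinin subunit, fell 1.51-fold (adjusted p = 0.0042), from 522, 427 and 392 to 292, 306 and 284. BAR1, the protease that destroys alpha factor, fell by 0.34 on the log2 scale, and PRM4 and PRM5 rose by 0.60 and 0.44; PRM5 and BAR1 were each lost in 4 of the 12 fits that left out 1 array (adjusted p up to 0.12 and 0.090), while AGA1 and PRM4 held. Of 27 genes of mitosis and daughter cell separation 0 were called by limma without the block, and 5 rose and 1 fell with it. CLB2, a mitotic cyclin, went from 81.5, 123 and 103 to 141, 178 and 164, without overlap, and just missed the threshold at an adjusted p of 0.051 (0.0073 with the block).

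Of the 165 called genes 63 stood in none of the 48 lists. Their largest rises were in YBL100W-A and YBL005W-A, coat protein genes of Ty retrotransposons, read by probe sets shared between transcripts. YBL100W-A read 178, 172 and 191 at 2% and 668, 610 and 661 at 0.25%, 3.58-fold higher (adjusted p = 8.0e-07). YBL005W-A read 137, 186 and 332 against 536, 762 and 763, 3.33-fold higher (adjusted p = 0.00064), with its highest mean, 781, at 0.5%; with the 3' to 5' covariate its difference was 0.17. RGI1, a gene of respiratory growth, read 172, 224 and 178 at 2% and 969, 278 and 389 at 0.25%, a rise of 1.31 on the log2 scale (adjusted p = 0.027). Without replicate 1 at 0.25%, the highest, the difference was 0.79 and still passed (0.015). RGI1 missed the threshold when replicate 1 or 3 at 2% was left out (0.12 and 0.071).

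Other rises outside the lists held in each fit that left out 1 array. RTS3, linked to protein phosphatase 2A, read 59.6, 95.9 and 70.7 at 2% and 189, 141 and 180 at 0.25%, 2.28-fold higher (adjusted p = 0.0015). SUR1, of sphingolipid mannosylation, rose 2.00-fold (adjusted p = 0.0025), from 205, 174 and 189 to 432, 285 and 440. TDA1, a protein kinase gene, went from 97.9, 101 and 105 to 200, 174 and 198 (1.87-fold, adjusted p = 0.00050). Both RTS3 and TDA1 were under the dim limit of 110 on every 2% array, and entered the test through the arrays of lower glucose. RPM2, the protein subunit of mitochondrial RNase P, rose 1.87-fold (adjusted p = 0.0047), and YMR196W, a gene known by its systematic name, went from 93.7, 117 and 118 to 221, 220 and 219 (2.02-fold, adjusted p = 3.4e-05). A few more called genes outside the lists are named here after their values were seen. MCR1, a mitochondrial cytochrome b5 reductase, and COX20, an assembly chaperone of cytochrome oxidase, rose by 0.60 and 0.50 on the log2 scale and held in each fit. SDH5, RPO41, the mitochondrial RNA polymerase, MEF1, a mitochondrial elongation factor, and CYT2, which attaches heme to cytochrome c1, were at 0.46, 0.44, 0.42 and 0.39. Each was lost without at least 3 single arrays (adjusted p up to 0.13, 0.11, 0.11 and 0.13). MEF1 and CYT2 were lost in most of the 12 fits that left out 1 array.

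With 4.04% of the tested genes called, both genes were called in 6 of 2949 adjacent pairs of tested genes. The number of pairs expected if calls were unrelated to position was not worked out, so the pairs are only listed. In 4 pairs both genes rose: MHT1 with MMP1, FIT2 with FIT3, CMK1, a calmodulin-dependent kinase gene, with GSY1 (log2 0.74 and 1.63), and YBL100W-A with ATP1 (1.84 and 0.30). PRM5 rose beside HIS5, which fell, and SUR1 beside PDR12, which fell too. Order was taken from the RefSeq table of the reference assembly, and the pairs were named after their values were seen.

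The last step of the series, from 0.5% to 0.25% glucose, shares the 0.25% arrays with the comparison above. In it 5 of 4086 genes passed (0.122%), and all 5 had also been called between the ends. HXT1 fell by a further 1.67 on the log2 scale (adjusted p = 0.00011) and HXT3 by 0.76 (0.0045). TMA10 rose by 1.12 (adjusted p = 0.00049), from a mean of 346 to 762. HXT7 rose by 0.71 (adjusted p = 0.0069) and GSY1 by 0.65 (0.031). The count was 3 without replicate 1 or replicate 3 at 0.5%, 8 without replicate 1 at 2%, and 17 with the replicate block. PHO89 and HXK1, among the largest rises between the ends, were at 0.59 and 0.51 in this step without passing (adjusted p = 0.18 and 0.12).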

How the data were processed

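Total RNA was extracted with Trizol LS and hybridised to one-colour Affymetrix arrays, per the labels' protocols. The deposited intensities are linear signals, 1 for each probe set, already scaled by the authors to a trimmed mean of 500 on each array, as the values show; the sources used here do not name the program. Scaling to a common mean hides changes of total RNA per cell. Of 10928 probe sets 5900 were above 0 and 5498 named a yeast gene in the platform annotation; the brightest was used for the 47 genes with several. Signals were floored at 1 and log2 transformed, and genes with a mean at or under percentile 25 were left out as dim. Array medians lay within 0.173 on the log2 scale, and no further scaling was applied in the main fit. The count of called genes depended on this: 165 became 196 with median scaling and 228 with quantile normalization. The tested genes correlated with r from 0.9815 to 0.9895 within either level and from 0.9588 to 0.9821 between them, and the median standard error of a log2 difference was 0.11; the number of arrays limits the precision.

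limma 3.58.1 (R 4.3.3) fitted the level means of all 12 arrays together with a variance trend; tests were moderated and two-sided, with a Benjamini-Hochberg adjusted p under 0.05 over all tested genes. The labels do not say that equal replicate numbers mark a shared batch, and the pairing was taken from these same data. Deviations from the level means correlated between same-numbered arrays of 2% and 0.25% with r of 0.53, 0.12 and 0.53, across genes. The block spans all 12 arrays. Replicates 1 and 3 at 2% correlated with their own numbers at 1% and 0.5% (r from 0.235 to 0.614). Replicate 2 at 2% had r of -0.027 and 0.186 with its own number there, below 0.122 with replicate 1 at 1% and 0.229 with replicate 3 at 0.5%. Gene lists, the comparison and the rule for named genes were chosen with earlier results of these data known, so counts in lists are descriptions. Named genes are the 40 largest rises and 25 largest falls past the threshold, up to 5 tested members of each list by size, 35 glucose genes, the largest changes of the last step, and 5 dim genes in each direction; fewer are printed in places. Gene functions are background knowledge. The procedure was run on simulated data with independent noise. Those data held neither the correlation between same-numbered arrays nor the 3' to 5' difference at 2%, so they say nothing about either. Alternatives were other scalings, offsets and dim filters, the block, covariates, array weights and left-out arrays.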

Additional observations from a re-analysis of the deposited data

Results flagged for a closer look

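A probe set with no listed gene lay outside the genes analysed. Its signal was 378 ± 71.8 (SD, n = 3) at 2% glucose and 751 ± 90.9 at 0.25%, 2.01-fold higher, and the arrays of both levels did not overlap. Of 218 probe sets above 0 that name no gene and are no controls, 128 were above the dim limit, and this was the 1 of them with a difference of at least 2-fold and no overlap. Of the 4086 tested genes 0.685% were higher by at least 2-fold, and for 19.7% the arrays of the levels did not overlap. The probe set was not tested.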

How the results depend on the processing

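For the 165 genes that differed between 0.25% and 2%, the replicate block gave 445 (260 higher, 185 lower), the compared levels alone in the fit 100 (19 lower), both together 432 (255 and 177), the 3' to 5' ratio as a covariate 8 (7 and 1), and the block without the dim filter 562 (359 and 203). The 119 higher genes became 182 without the dim filter, 179 when an offset of 16 was added as well and 78 with the filter at the median. The 46 lower genes became 76 with quantile normalization, 80 with array weights and 27 with the ribosomal RNA covariate. With single arrays left out the total ranged from 83 to 183, the higher genes from 63 to 128 and the lower from 20 to 64, each lowest without replicate 1 at 2%. The cause was not tested, except that dim filters change how many genes are tested, and left-out arrays and the levels alone reduce the samples. Between 0.25% and 0.5% the 5 genes became 8 with quantile normalization, 17 with the replicate block and 22 with array weights, and 3 to 8 with single arrays left out; the cause was not tested. GIS1, a regulator of stationary phase genes called at a log2 difference of 0.62, reversed to -0.04 with the 3' to 5' covariate, and the cause was not tested; it also missed the threshold in 5 of the 12 fits that left out 1 array (adjusted p up to 0.17) and with the ribosomal RNA covariate (0.17). No other named gene called between the ends changed sign under the alternatives compared here. The block without the dim filter, the offset without it, and single arrays left out without it were chosen after seeing the data. Dim genes are near the background, where folds depend on the offset.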

Other observations

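Some dim genes outside the panels moved with glucose in the fit without the dim filter, and are named here after their values were seen. IGD1, an inhibitor of glycogen debranching, read 36.3, 43.1 and 37.3 at 2% and 123, 91.9 and 113 at 0.25% (log2 1.48, limma adjusted p = 7.4e-05). WSC4, of a family of wall stress sensors, fell from 97.0, 136 and 118 to 32.7, 55.6 and 48.0 (log2 -1.39, adjusted p = 0.0054). HMX1, heme oxygenase, and FRE5, a putative ferric reductase, the 2 of 8 dim members of the iron list that passed, were at 1.05 and 1.95 (adjusted p = 0.0030 and 0.0052), FRE5 at signals of at most 32.3. DAN1, an anaerobic wall mannoprotein, fell by 1.69 (adjusted p = 0.0052), at signals of at most 30.5 on these arrays. ISF1 read 16.6, 9.99 and 12.5 at 2% and 153, 31.4 and 49.4 at 0.25%, with replicate 1 far above the others (adjusted p = 0.0057).

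Among brighter genes not described above, NCE103, carbonic anhydrase, read 501, 546 and 547 at 2% and 832, 994 and 818 at 0.25%, 1.65-fold higher (adjusted p = 0.00047). BDH1, butanediol dehydrogenase, read 442, 553 and 565 against 774, 968 and 959, 1.73-fold higher (adjusted p = 0.0041; log2 0.07 with the 3' to 5' covariate, against 0.79 without it). PNC1, nicotinamidase, rose 1.30-fold (adjusted p = 0.0027), from 1221, 1290 and 1271 to 1611, 1712 and 1611. In several lists limma called 0 genes: 0 of 16 tested genes of Ras and protein kinase A (1 lower with the replicate block), 0 of 26 of ergosterol synthesis (1 lower with the block), 0 of 42 of DNA replication and histones (3 lower with the block) and 0 of 34 of the proteasome (0 with the block). The share called over all tested genes was itself only 4.04%, and 4.53% were lower with the block. CTR1, the copper transporter, read 802, 1009 and 894 at 2% and 1522, 888 and 1649 at 0.25%, and did not pass (log2 0.54, adjusted p = 0.17, and 0.039 with the block). It was low in the same 0.25% replicate as TIS11 and FIT2, and that array lay within the range of the 2% arrays.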
